A study of Mus musculus with 12 samples.

Results

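The 8 genes described here encode 6 mouse enzymes that methylate lysine 9 of histone H3 (H3K9) and the cofactors TRIM28 and ATF7IP. They were followed in male germ cells of the fetal and newborn testis. The set holds 6 enzyme genes (Setdb1, Setdb2, Suv39h1, Suv39h2, Ehmt1 and Ehmt2) and 2 cofactor genes (Trim28 and Atf7ip). Members were chosen by name. They are the rows of the deposited table whose Ensembl identifier maps to one of these symbols, 8 of 55487 genes in all. Each symbol matched 1 row, and all 8 passed the filter on low values.

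Methylated H3K9 marks silent chromatin. EHMT2 (G9a) and EHMT1 (GLP) work as a heterodimer that adds mono- and dimethyl marks in euchromatin, while SUV39H1 and SUV39H2 add the trimethyl mark of pericentromeric heterochromatin, where HP1 proteins bind it. SETDB1 adds trimethyl marks at retrotransposons, brought there by TRIM28 (KAP1), which KRAB zinc finger proteins tether to DNA, and ATF7IP stabilises SETDB1 in the nucleus. SETDB2 is a relative of SETDB1. In the male germ line these pathways keep retrotransposons silent through the period when DNA methylation is erased and laid down again and the cells, called gonocytes, leave and re-enter the cell cycle.

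Transcripts were measured by RNA sequencing of gonocytes from the testes of Mvh-Venus transgenic mice, in which regulatory sequence of Mvh (Ddx4) drives a fluorescent protein in germ cells. There were 12 libraries, 3 each at embryonic days E13.5 and E16.5, at birth (P0) and at postnatal day 3 (P3), and no agent was given. The labels disagree on genotype. Sample titles and source names give wild type throughout, whereas the genotype tag reads Morc1 (+/-) at E13.5 and P0 and Morc1 (-/-) at E16.5 and P3. Morc1 itself had 1697 ± 115 and 7496 ± 214 normalized counts at the (+/-) stages E13.5 and P0, and 31378 ± 2641 and 10880 ± 276 at the (-/-) stages E16.5 and P3 (SD, n = 3), so the stages tagged (-/-) were not the low ones. No source used here says which part of Morc1 the allele removes. Libraries were therefore grouped by stage. Consecutive stages, and also E13.5 and P3, differ in the tag as well as in age, and tag and age cannot be told apart there. P0 against E13.5 and P3 against E16.5 stay within 1 tag. Nothing in the labels says whether the 3 libraries of a stage came from separate animals or from pools, so p-values measure only the spread between these libraries, which may be technical.

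Libraries held 40946616 to 51533747 reads assigned to genes. Values are normalized counts, that is, reads divided by 1 size factor per library. These factors ran from 1.84 to 2.07 at P0, against 0.919 to 0.951 for the E13.5 libraries, 1.05 to 1.26 for those of E16.5 and 0.988 to 1.03 for those of P3. The reads of the 8 genes ran from 751 in the lowest library (Ehmt1, E16.5) to 34517 in the highest (Ehmt2, P0). Library scaling mattered. Setting equal library totals in place of the deposited factors moved the all-gene median of the log2 fold changes from 0.31 to 0.84 for E16.5 against E13.5, from -0.01 to 0.68 for P0 against E16.5 and from 0.05 to -0.86 for P3 against P0. It moved that median from 0.20 to 1.51 for P0 against E13.5, from -0.05 to -0.25 for P3 against E16.5 and from 0.16 to 0.47 for P3 against E13.5. Of the genes called, the share that was higher went from 56.8% to 70.1%, from 45.2% to 78.7% and from 52.4% to 25.2% in the 3 consecutive comparisons. For P0 against E13.5 it went from 53.0% to 77.2%, and for P3 against E13.5 from 55.7% to 68.9%. Median-of-ratios factors gave 59.6% for P0 against E16.5 and 38.4% for P3 against P0. Directions below are those of the deposited scaling unless another is named, and ratios between genes of 1 library do not depend on it.

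Germ cell markers (Ddx4, Dazl, Mael, Tdrd1 and Dppa3) summed to 288000 to 305271, 184159 to 201670, 130064 to 138817 and 217286 to 234271 normalized counts in the order of stages from E13.5 to P3, above every other marker list in every library. The low sums at P0 depend on the scaling. As a share of a library's reads these markers made up 0.541% to 0.561%, 0.503% to 0.528%, 0.550% to 0.586% and 0.517% to 0.539% in the same order. The 5 germ cell markers did not move together. From E13.5 to E16.5, 2 were called higher and 3 lower (log2 fold changes -2.44 to 2.81), and P3 against E13.5 ran from -12.1 to 1.85. Their sum or share is therefore not a measure of germ cell content across stages. Markers of other cells were detected at lower levels and moved with stage. The 5 Sertoli cell markers summed to 820 to 1308, 1306 to 2329, 2815 to 4963 and 1019 to 1611 in the same order. The 5 Leydig cell markers summed to 571 to 723, 608 to 7681, 1078 to 6106 and 179 to 267, with the highest sums in E16.5 library 4 and P0 library 1. The 3 peritubular markers summed to 81.3 to 101, 640 to 1145, 2212 to 2341 and 443 to 562. The 4 mast cell markers were at 0 in every E13.5 library and summed to 1170 to 2434 at P0, with 15.8 to 27.7 in the E16.5 libraries and 1.01 to 229 in those of P3. The 4 globin genes summed to 33.7 to 385, 242 to 1008, 351 to 1140 and 69.8 to 201, and 5 markers of macrophages and endothelium to 4350 to 5103, 341 to 505, 677 to 805 and 419 to 527. Pecam1 alone carried that last fall (4618 ± 400.3 to 282 ± 74.3 from E13.5 to E16.5, log2 fold change -4.06, limma adjusted p 3.62e-13), while Adgre1, Csf1r, Ptprc and Cdh5 rose over the same interval under each scaling. Which cells gave the Pecam1 reads was not tested, so that sum is not a measure of macrophages and endothelium across stages. The part of the other cell types in the differences below was not tested, and in bulk libraries fewer cells of a type and less RNA per cell cannot be told apart. The peritubular sum was, like Ehmt2, higher in every E16.5 and P0 library than in every E13.5 and P3 library. Of its genes Myh11 and Cnn1 had this pattern, while the Acta2 libraries overlapped. The germ cell marker Mael also had it, as did Cyp11a1, Hba-a2, Adgre1 and Cdh5 of the other lists and 19.1% of all genes.

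One gene of the set ran opposite to the other enzymes. Ehmt2 was high at E16.5 and P0 and low at E13.5 and P3, in every library, while Setdb1, Setdb2, Suv39h1, Suv39h2 and Ehmt1 were low at E16.5 and P0 and high at E13.5 and P3. Trim28 was highest at E13.5, and Atf7ip was high at both fetal stages and low at both postnatal ones. All 8 genes differed among the 4 stages by limma's moderated F-test (highest Benjamini-Hochberg adjusted p 1.22e-09), but so did 95.2% of the 22384 genes tested. For 5 members every E16.5 and P0 library lay below every E13.5 and P3 library, as it did for 19.7% of all genes. For 1 member, Ehmt2, every E16.5 and P0 library lay above, as for 19.1% of all genes. On CPM, that is, reads scaled to equal library totals, Ehmt2 again lay above and Setdb2, Suv39h1, Suv39h2 and Ehmt1 below, whereas the Setdb1 libraries overlapped and those of Atf7ip lay above. On that scale 28.6% of all genes lay above and 9.10% below.

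**Figure D1:**
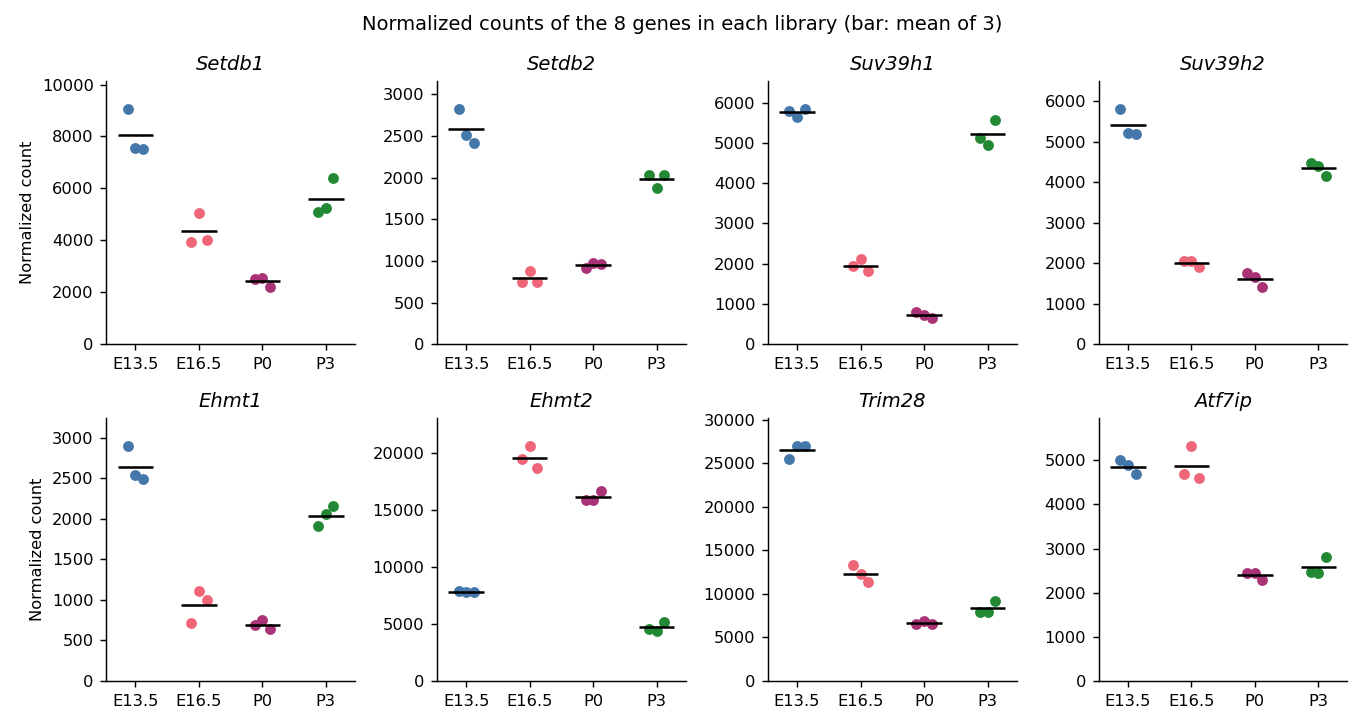
Normalized counts (y axis, linear, from 0) of each of the 8 genes in the 12 libraries, by stage (x axis). Points are libraries and bars the mean of 3. Ehmt2 has its high points at E16.5 and P0, between 15858 and 20652, while Suv39h1 falls to between 661 and 797 at P0 and stands between 4943 and 5569 at P3.

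The EHMT pair is shown first because its members moved in opposite directions. Ehmt2 (ENSMUSG00000013787), protein-coding like all 8, lies on the + strand at chr17:34898469-34914052, and Ehmt1 (ENSMUSG00000036893) lies on the - strand at chr2:24789928-24919614 (GENCODE annotation, GRCm38). The stretches just before their transcription starts that lie outside annotated exons are given next, 5′ to 3′ in the direction of the gene, from RefSeq promoters of build GRCm38.p6. They are chr17:34898266-34898468 for Ehmt2 (+ strand, 203 bases, ending 6 bases before the start) and chr2:24919615-24919859 for Ehmt1 (- strand, 245 bases, also ending 6 bases before the start). Capitals mark matches, on either strand, to 7 motifs searched in the 250 bases before a start.
Ehmt2: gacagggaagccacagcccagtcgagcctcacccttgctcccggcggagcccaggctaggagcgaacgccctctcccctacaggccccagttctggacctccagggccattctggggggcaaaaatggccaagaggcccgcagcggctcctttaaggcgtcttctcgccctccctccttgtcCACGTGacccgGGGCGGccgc
Ehmt1: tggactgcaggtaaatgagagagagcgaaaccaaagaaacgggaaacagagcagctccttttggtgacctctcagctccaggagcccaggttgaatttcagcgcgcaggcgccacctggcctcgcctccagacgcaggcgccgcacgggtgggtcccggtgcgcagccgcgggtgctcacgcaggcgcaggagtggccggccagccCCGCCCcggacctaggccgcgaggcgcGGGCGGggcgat
The motif of the E-box was CACGTG, and that of the GC box was GGGCGG. The others were CCAAT (the CCAAT box), the cell cycle element TTTGAA, the cyclic AMP response element TGACGTCA, the E2F-like motif TTTNNCGC and the TATA box TATAAA, and none holds another. Ehmt2 carried CACGTG 26 and 232 bases before this start, the second of them inside an exon of the neighbouring gene C2 and outside the printed stretch. A second RefSeq start of Ehmt2 had 1 more, 236 bases upstream. Ehmt1 had none, and it matched only GGGCGG, 44 and 17 bases before its start. CACGTG occurred in 6.02% and GGGCGG in 32.7% of 32851 mouse promoter windows of the same length. No other promoter among the 8 genes held CACGTG. All 8 genes matched a RefSeq promoter, and a match describes the letters only.

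Ehmt2, which encodes the G9a subunit, had 7880, 7829 and 7783 normalized counts in the 3 E13.5 libraries. It had 19470, 20652 and 18706 at E16.5, 15883, 15858 and 16660 in the P0 libraries and 4572, 4416 and 5208 in those of P3. No 2 stages overlapped, and the order from high to low was E16.5, P0, E13.5, P3. Ehmt2 rose 2.50-fold from E13.5 to E16.5, or by 1.32 on the log2 scale (SE 0.0695, limma with Benjamini-Hochberg adjusted p 2.10e-11). It fell 3.42-fold from P0 to P3, or -1.77 in log2 (adjusted p 9.96e-13), to a level below that of E13.5 (-0.73, adjusted p 7.20e-08). All 3 differences kept their direction and call under each of the 5 scalings tried, with the E16.5 rise between 1.32 and 1.83. The smaller fall from E16.5 to P0 (-0.28, adjusted p 0.00226) depended on the scaling. It was -0.02 (adjusted p 0.793) with median-of-ratios factors and 0.38 (adjusted p 1.63e-04) with equal totals. In CPM Ehmt2 stood at 146 ± 1.91, 519 ± 21.2, 677 ± 42.6 and 111 ± 11.4 in the order of stages, so that P0 rather than E16.5 was the highest.

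Ehmt1, which encodes the GLP subunit of the heterodimer, had 2899, 2540 and 2495 normalized counts at E13.5 and 717, 1107 and 996 at E16.5. It had 684, 754 and 643 in the P0 libraries and 1912, 2053 and 2155 in those of P3. The E13.5 libraries were highest and the P3 libraries next, and the ranges at E16.5 and P0 overlapped. Ehmt1 fell 2.85-fold from E13.5 to E16.5 (log2 fold change -1.51, SE 0.128, limma adjusted p 1.13e-08) and rose 2.94-fold from P0 to P3 (1.56, adjusted p 9.98e-09), under each of the 5 scalings. The difference between P0 and E16.5 was -0.42 (adjusted p 0.0101). It missed the threshold with TMM factors (adjusted p 0.0519), without E16.5 library 3 (-0.29, adjusted p 0.0670) and without E16.5 library 4 and P0 library 1 (-0.35, adjusted p 0.0917), and was 0.25 (adjusted p 0.121) with equal totals.

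The SUV39H pair, which adds the trimethyl mark of pericentromeric heterochromatin, moved together up to E16.5 and parted at P0. Suv39h1 (ENSMUSG00000039231) lies on the - strand of the X chromosome at chrX:8061171-8074760, and Suv39h2 (ENSMUSG00000026646) on the - strand at chr2:3455815-3475031. Their promoters are printed because the 2 genes shared a direction in most comparisons and yet no motif match except GGGCGG. The stretches are chrX:8074761-8075010 (- strand, 250 bases up to the start) and chr2:3475032-3475236 (- strand, 205 bases, ending 46 bases before the start), from the same RefSeq source and with the same meaning of capitals.
Suv39h1: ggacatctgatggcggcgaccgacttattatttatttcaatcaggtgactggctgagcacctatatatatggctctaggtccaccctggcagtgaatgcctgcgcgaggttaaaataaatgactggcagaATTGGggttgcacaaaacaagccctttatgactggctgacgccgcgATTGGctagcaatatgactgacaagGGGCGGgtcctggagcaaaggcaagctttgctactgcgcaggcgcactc
Suv39h2: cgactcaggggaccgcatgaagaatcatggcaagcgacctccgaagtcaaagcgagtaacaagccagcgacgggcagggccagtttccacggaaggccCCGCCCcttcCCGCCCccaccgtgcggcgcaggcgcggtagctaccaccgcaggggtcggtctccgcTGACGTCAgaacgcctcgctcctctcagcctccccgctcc
The Suv39h1 stretch held CCAAT, read on the opposite strand as ATTGG, 120 and 74 bases before the start, and GGGCGG 49 bases before it. CCAAT occurred in 33.8% of all promoter windows. A second RefSeq start of Suv39h1, not printed, held TTTNNCGC 198 and 64 bases upstream, a motif found in 4.28% of windows. The Suv39h2 stretch held TGACGTCA, the palindromic cyclic AMP response element, 85 bases before the start, which 1.55% of windows held, and GGGCGG 152 and 142 bases before the start. Among the 8 genes TGACGTCA was found at Suv39h2 alone.

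Suv39h1 had 5801, 5633 and 5837 normalized counts at E13.5, 1934, 2122 and 1809 at E16.5, 797, 723 and 661 in the P0 libraries and 5120, 4943 and 5569 in those of P3. The stages did not overlap, and P0 was the lowest by far. Suv39h1 fell 2.95-fold from E13.5 to E16.5 (log2 fold change -1.56, SE 0.0840, limma adjusted p 2.93e-11) and a further 2.69-fold to P0 (-1.43, adjusted p 3.24e-10). It then rose 7.17-fold from P0 to P3 (2.84, adjusted p 6.63e-14), the largest change among the 8 genes between consecutive stages. These 3 changes held under all 5 scalings, the rise to P3 ranging from 2.00 to 2.87. P3 against E13.5 gave -0.15 (SE 0.0840, adjusted p 0.134) under the deposited scaling, -0.15 (adjusted p 0.0451) where only these 2 stages were fitted and 0.18 (adjusted p 0.0377) with equal totals. Exons of the antisense gene Gm14820 cover 14.6% of the exonic bases of Suv39h1, and whether counting used strand is not given in the sources used here. Gm14820 had at most 6.68 normalized counts on average at any stage, and the effect of the overlap on the Suv39h1 counts was not tested.

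Suv39h2, the paralog best known from testis, had 5801, 5208 and 5196 normalized counts at E13.5, 2063, 2051 and 1909 at E16.5, 1770, 1661 and 1423 in the P0 libraries and 4478, 4405 and 4142 in those of P3. Again the P0 libraries were the lowest, although close to those at E16.5. Suv39h2 fell 2.69-fold from E13.5 to E16.5 (log2 fold change -1.43, SE 0.0840, limma adjusted p 9.54e-11) and rose 2.69-fold from P0 to P3 (1.43, adjusted p 1.35e-10), under each of the 5 scalings. The difference between P0 and E16.5 was -0.32 (adjusted p 0.00378) on the deposited scaling, -0.06 (adjusted p 0.527) with median-of-ratios factors and 0.35 (adjusted p 3.41e-04) with equal totals. Relative to the median gene it was -0.31 and, with equal totals, -0.33. Exons of Dclre1c and Gm13184, on the other strand, together cover 9.98% of the exonic bases of Suv39h2. Dclre1c had means of 499, 176, 204 and 162 normalized counts over the 4 stages, and its share in the Suv39h2 counts was not tested.

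Setdb1 (ENSMUSG00000015697, - strand, chr3:95323525-95357202), which encodes the enzyme that acts with TRIM28 at retrotransposons, had 9048, 7546 and 7533 normalized counts at E13.5 and 3951, 5041 and 4031 at E16.5. It had 2510, 2549 and 2203 in the P0 libraries and 5084, 5243 and 6416 in those of P3. The order was E13.5, P3, E16.5, P0, with no overlap between stages although E16.5 library 3 came close to P3. Setdb1 fell 1.86-fold to E16.5 (log2 fold change -0.89, SE 0.110, limma adjusted p 1.23e-06), fell 1.79-fold to P0 (-0.84, adjusted p 5.65e-06) and rose 2.30-fold to P3 (1.20, adjusted p 3.98e-08). The fall to P0 was -0.17 (adjusted p 0.164) with equal totals, while the other 2 changes kept their call under the 5 scalings. In CPM Setdb1 ran from 140 to 166, 101 to 132, 95.6 to 108 and 117 to 153 in the order of stages, so that E16.5 and P0 overlapped, as did E13.5 and P3. Transcripts of other genes, mostly Gm4349, share 10.2% of the 50-base words of the Setdb1 transcripts, and how reads that match several genes were counted is not given in the sources used here. Exons of Cers2 and Gm37500, on the other strand, together cover 4.73% of the exonic bases of Setdb1. Cers2 had means of 2043, 707, 1259 and 933 normalized counts in the order of stages, and its share in the Setdb1 counts was not tested.

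Setdb2 (ENSMUSG00000071350, - strand, chr14:59402009-59440884) had 2820, 2513 and 2417 normalized counts at E13.5, 741, 875 and 752 at E16.5, 921, 973 and 958 in the P0 libraries and 2035, 1870 and 2036 in those of P3. Its lowest libraries were those of E16.5, whereas Setdb1, Suv39h1, Suv39h2 and Ehmt1 had their lowest mean at P0 on the deposited scaling. In CPM the means of Suv39h2 (53.1 at E16.5, 67.7 at P0) and Ehmt1 (25.0 and 29.1) were also lower at E16.5 than at P0. Setdb2 fell 3.27-fold to E16.5 (log2 fold change -1.71, SE 0.0884, limma adjusted p 1.72e-11), the largest fall of the set over that interval. It rose 1.21-fold from E16.5 to P0 (0.27, adjusted p 0.0141) and 2.08-fold from P0 to P3 (1.06, adjusted p 1.17e-08). These changes held under the 5 scalings. The rise to P0 missed the threshold without E16.5 library 1 (0.23, adjusted p 0.0506) and without E16.5 library 4 and P0 library 1 (0.26, adjusted p 0.0574).

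Trim28 (ENSMUSG00000005566, + strand, chr7:12999114-13031035), the corepressor that links KRAB zinc finger proteins to SETDB1, had 25531, 27002 and 27003 normalized counts at E13.5 and 13368, 12242 and 11310 at E16.5. It had 6497, 6923 and 6553 in the P0 libraries and 7973, 7934 and 9185 in those of P3. Every P3 library stayed below every E16.5 library. Trim28 fell 2.16-fold to E16.5 (log2 fold change -1.11, SE 0.0756, limma adjusted p 6.37e-10) and 1.84-fold to P0 (-0.88, adjusted p 3.26e-08), and P3 was 3.18-fold below E13.5 (-1.67, adjusted p 6.38e-12), all under each of the 5 scalings. P3 against P0 was 0.33 (adjusted p 9.26e-04) on the deposited scaling, 0.15 (adjusted p 0.0546) with TMM factors, -0.11 (adjusted p 0.197) with median-of-ratios factors and -0.51 (adjusted p 6.82e-06) with equal totals. Its CPM fell at each step, at 494 ± 22.0, 325 ± 15.1, 279 ± 16.1 and 196 ± 19.8.

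Atf7ip (ENSMUSG00000030213, + strand, chr6:136506167-136610862), whose product binds and protects SETDB1, had 4999, 4893 and 4686 normalized counts at E13.5 and 4683, 5327 and 4592 at E16.5. It had 2455, 2457 and 2293 in the P0 libraries and 2458, 2448 and 2808 in those of P3. The 2 fetal stages overlapped, the 2 postnatal stages overlapped, and the fetal libraries all lay above the postnatal ones. E16.5 against E13.5 gave a log2 value of -0.00 (limma, SE 0.0779, adjusted p 0.998), and P3 against P0 gave 0.10 (SE 0.0779, adjusted p 0.270). Atf7ip fell 2.02-fold from E16.5 to P0 (-1.02, adjusted p 8.31e-09), under each of the 5 scalings. Neither interval without a call stayed so under every scaling. With equal totals E16.5 against E13.5 was 0.51 (adjusted p 1.39e-05) and P3 against P0 was -0.74 (adjusted p 2.28e-07), and in CPM the gene stood at 90.6 ± 2.94, 129 ± 9.90, 101 ± 2.68 and 60.2 ± 5.75.

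E16.5 against E13.5 asks how fetal gonocytes changed between those days. In this comparison 7 of the 8 genes changed, 1 higher (Ehmt2) and 6 lower, with Atf7ip not called, against 80.1% of all genes called, 45.5% higher and 34.6% lower. The median log2 fold change of the 8 was -1.27, and that of all genes tested 0.31. With median-of-ratios factors and with equal totals all 8 were called, with Atf7ip then higher (0.22 and 0.51). With equal totals 55.6% of all genes were called higher and 23.7% lower. Over the same interval 6 of 6 proliferation genes (Mki67, Mcm2, Pcna, Top2a, Cdk1 and Ccnb1) fell, with a median of -2.61, and their part in the members' changes was not tested.

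P0 against E16.5 covers the last days before birth. All 8 genes were called, 1 higher (Setdb2) and 7 lower, against 61% of all genes, 27.6% higher and 33.4% lower. Their median log2 fold change was -0.63, and that of all genes -0.01. With equal totals 6 were called, 3 higher (Setdb2, Suv39h2 and Ehmt2) and 3 lower (Suv39h1, Trim28 and Atf7ip), against 54.9% of all genes higher and 14.8% lower. With median-of-ratios factors 5 were called, against 63.0% of all genes, and without E16.5 library 4 and P0 library 1 there were 6, all lower, against 32.0% of all genes lower. Relative to the median of all genes, the members' median was -0.62 on the deposited scaling and -0.64 with equal totals. In this interval all 5 Sertoli cell markers and all 4 mast cell markers rose, and 4 of 6 proliferation genes fell on the deposited scaling. Over the 5 scalings Ccnb1 ran from -2.24 to -1.54 and Mcm2 from -0.97 to -0.28, but Cdk1 from -0.51 to 0.18. The part of these genes in the members' changes was not tested.

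P3 against P0 covers the first days after birth. Here 7 genes changed, 6 higher and 1 lower (Ehmt2), with Atf7ip not called, against 76.5% of all genes, 40.1% higher and 36.4% lower. The median log2 fold change of the 8 was 1.13, and that of all genes 0.05. With equal totals all 8 were called, 5 higher and 3 lower, since Trim28 and Atf7ip were then lower, against 19.7% of all genes higher and 58.4% lower. All 6 proliferation genes rose, with a median of 3.36, and all 5 Sertoli cell and 4 mast cell markers fell, and their part in the members' changes was not tested.

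**Figure D2:**
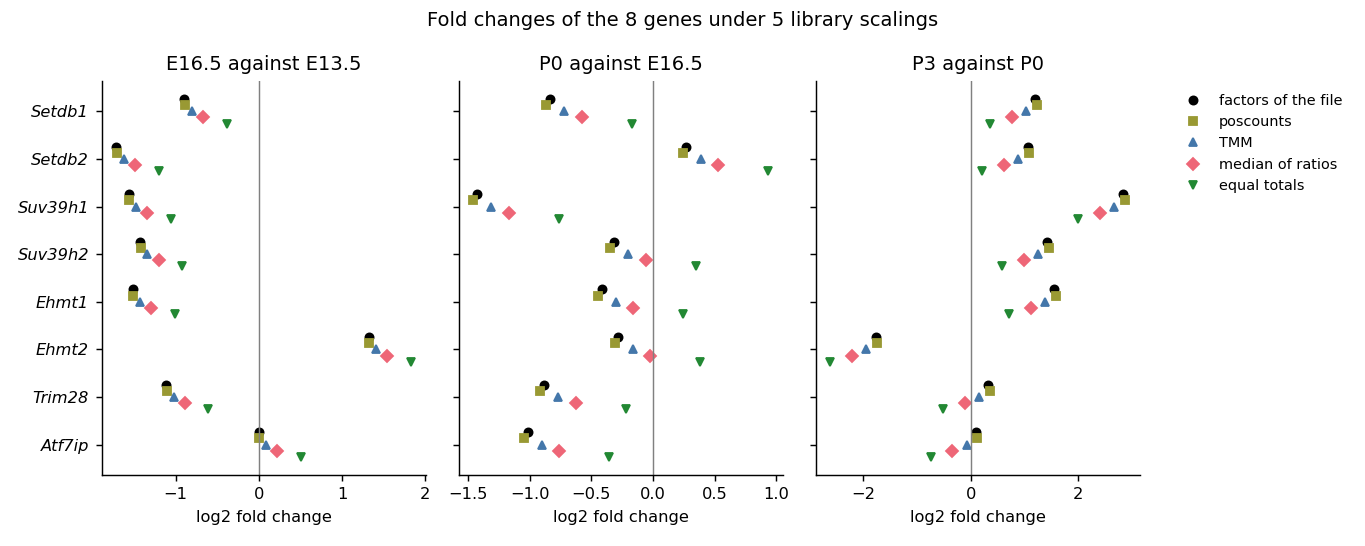
log2 fold changes (x axis) of the 8 genes (y axis) in the 3 comparisons of consecutive stages, 1 panel each, with 1 marker for each of 5 library scalings. Ehmt2 stays above 0 in the first panel and below 0 in the third under every scaling, and in the second panel the markers of Suv39h2, Ehmt1 and Ehmt2 fall on both sides of 0.

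Ehmt2 and the other enzymes kept their opposite directions in the 2 comparisons that stay within 1 genotype tag. For P0 against E13.5, both tagged Morc1 (+/-), all 8 genes were called, Ehmt2 higher and 7 lower, against 86.1% of all genes, 45.7% higher and 40.5% lower. The log2 fold changes were 1.04 for Ehmt2, -2.99 for Suv39h1, -1.99 for Trim28, -1.93 for Ehmt1, -1.74 for Suv39h2, -1.73 for Setdb1, -1.44 for Setdb2 and -1.02 for Atf7ip. With equal totals the Atf7ip value turned to 0.15 (limma adjusted p 0.0705), and the other 7 kept direction and call. For P3 against E16.5, both tagged Morc1 (-/-), all 8 were called, 5 higher and 3 lower, against 69.5% of all genes, 34.2% higher and 35.2% lower. The 5 higher genes were Suv39h1 (1.42), Setdb2 (1.33), Ehmt1 (1.14), Suv39h2 (1.11) and Setdb1 (0.36), and the 3 lower ones Ehmt2 (-2.05), Atf7ip (-0.92) and Trim28 (-0.56). Of these, Setdb1 did not pass with median-of-ratios factors (0.18, adjusted p 0.139), with equal totals (0.19, adjusted p 0.137) or without P3 library 4 (0.26, adjusted p 0.0537).

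P3 against E13.5 compares the first and the last stage, which differ in the genotype tag as well as in age. Under the deposited scaling 7 genes were lower at P3 and Suv39h1 was not called, against 70.4% of all genes called, 39.2% higher and 31.2% lower. Trim28 (-1.67), Atf7ip (-0.92) and Ehmt2 (-0.73) were lower under all 5 scalings. The differences of Setdb1 (-0.53), Setdb2 (-0.38), Ehmt1 (-0.37) and Suv39h2 (-0.31) passed the test on the deposited scaling but with equal totals were -0.20, -0.05, -0.04 and 0.01, none of them called. The Ehmt1 difference also missed the threshold without E13.5 library 1 (adjusted p 0.0724) and without P3 library 1 (adjusted p 0.0628).

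Ratios between 2 members of a library are free of its scaling. The Ehmt2 to Ehmt1 ratio was 27.1, 18.6 and 18.8 in the E16.5 libraries and 23.2, 21.0 and 25.9 in those of P0, against 2.72, 3.08 and 3.12 for E13.5 and 2.39, 2.15 and 2.42 for P3. The geometric means were 2.97, 21.2, 23.3 and 2.32 in the order of stages, and no library of E16.5 or P0 came near one of E13.5 or P3. An exact permutation test of the F statistic over all 369600 assignments of the libraries to 4 stages gave p = 8.44e-04 (0.00113 after Benjamini-Hochberg adjustment over the 4 ratios tested). The Suv39h2 to Suv39h1 ratio was 0.937 at E13.5, 1.03 at E16.5 and 0.834 at P3 (geometric means), but 2.22, 2.30 and 2.15 in the P0 libraries, with an exact permutation p of 3.90e-04 and an adjusted p of 7.79e-04. The 3 P0 libraries lay above all the others.

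The Setdb2 to Setdb1 ratio was lowest at E16.5, at 0.188, 0.174 and 0.187, against geometric means of 0.322 at E13.5, 0.394 at P0 and 0.357 at P3 (exact permutation p 0.00195, adjusted p 0.00195). The Atf7ip to Setdb1 ratio had geometric means of 1.13 and 0.994 at E16.5 and P0, and of 0.606 and 0.462 at E13.5 and P3, with an exact permutation p of 6.49e-05, the smallest the design can give, and an adjusted p of 2.60e-04. The libraries of the 4 stages did not overlap in this ratio.

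**Figure D3:**
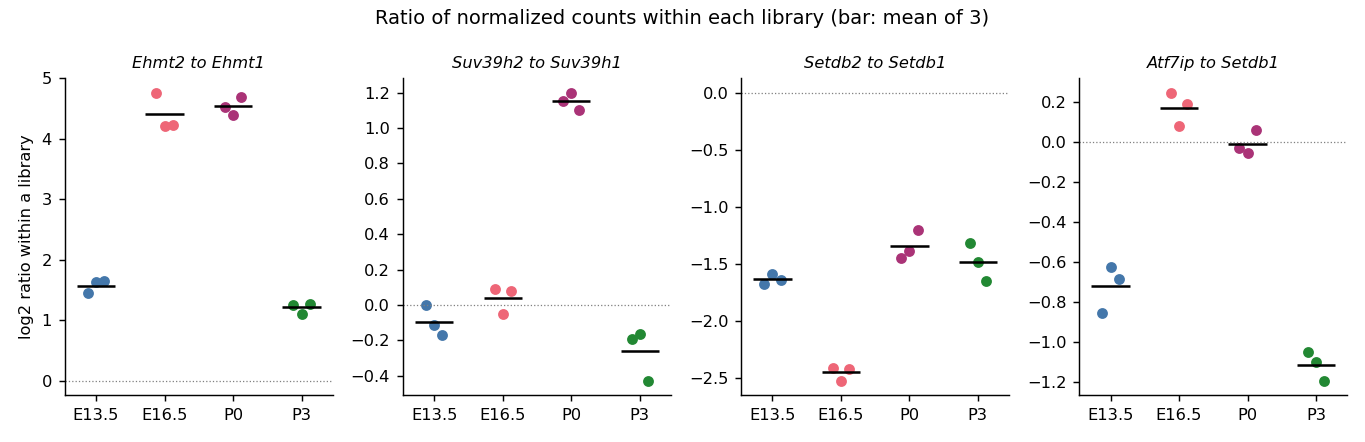
log2 ratio of normalized counts (y axis) for 4 pairs of members within each library, by stage (x axis). Points are libraries and bars the mean of 3. The Ehmt2 to Ehmt1 panel separates E16.5 and P0 (linear ratios of 18.6 to 27.1) from E13.5 and P3 (2.15 to 3.12).

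Per kilobase of exon, the scale on which different genes may be compared, the makeup of the transcripts of these 6 enzymes changed with stage. Ehmt2 made up 24.3 ± 1.07% of the summed normalized counts per kilobase of the 6 enzymes at E13.5, 66.9 ± 1.03% at E16.5, then 71.4 ± 1.97% in the P0 libraries and 19.6 ± 0.705% in those of P3 (SD, n = 3). Suv39h1 made up 18.6 ± 0.869%, 6.94 ± 0.158%, 3.35 ± 0.311% and 22.5 ± 0.265%, in the same order, and Ehmt1 5.53 ± 0.181%, 2.16 ± 0.411%, 2.08 ± 0.171% and 5.73 ± 0.258%. The sum over the 6 enzymes was 5882 ± 298, 5343 ± 333, 4118 ± 8.55 and 4390 ± 228 normalized counts per kilobase in the order of stages. That order depends on the scaling, since in CPM per kilobase the sum was 110 ± 4.33, 141 ± 7.94, 173 ± 6.51 and 103 ± 6.84, with P0 the highest. Without Ehmt2 it was 4455 ± 291, 1771 ± 161, 1178 ± 80.5 and 3528 ± 151 normalized counts per kilobase, and 83.0 ± 4.45, 46.9 ± 4.09, 49.3 ± 2.18 and 82.6 ± 4.77 in CPM per kilobase. On both scales the sum of the other 5 was lower at E16.5 and P0 than at E13.5 and P3.

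**Figure D4:**
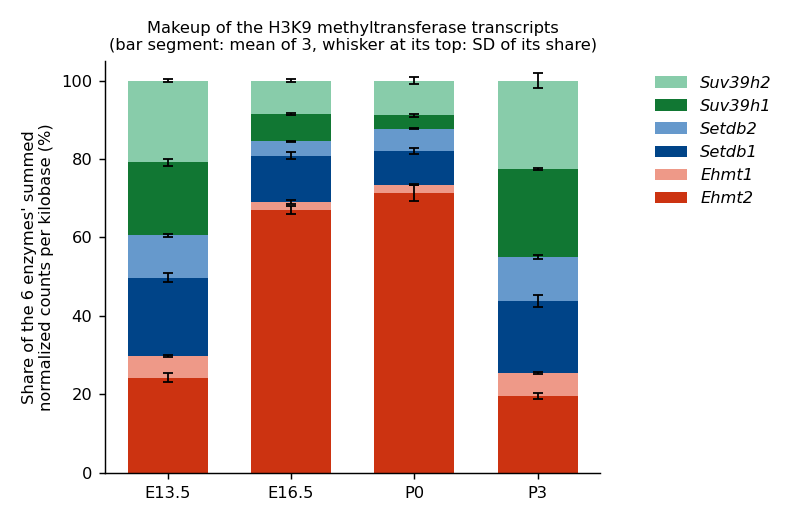
Share of each of the 6 enzyme genes in their summed normalized counts per kilobase (y axis, percent), by stage (x axis). Segments are means of 3 libraries and whiskers the SD of a share. The Ehmt2 segment takes 66.9% at E16.5 and 71.4% at P0, against 24.3% at E13.5 and 19.6% at P3.

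Trim28 led the 8 genes at E13.5, at 6376 normalized counts per kilobase, and at P3, at 2012. At E16.5 and P0 Ehmt2 led, at 3572 and 2939, with Trim28 next at 2960 and 1601. At E13.5 Ehmt2 (1427) followed Trim28, then Suv39h2 (1225), Setdb1 (1174) and Suv39h1 (1092), whose libraries overlapped with the neighbour in that order, and then Setdb2 (638), Ehmt1 (326) and Atf7ip (234). At P3 the levels of Suv39h1 (989), Suv39h2 (985), Ehmt2 (862) and Setdb1 (814) did not separate between neighbours. Ehmt1 was the lowest gene at E16.5 (116) and P0 (85.5), and Atf7ip at E13.5 and P3 (124). The exonic length of Atf7ip, 20.7 kilobases against 4.05 to 8.12 for the others, counts bases of every annotated transcript, so its level per kilobase is a low estimate if most transcripts are shorter.

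Across the 12 libraries the members fell into like-moving groups, given here as a description, with stage shared by the points. On log2 values the Pearson correlation was 0.98 between Ehmt1 and Suv39h2, 0.95 between Suv39h1 and Suv39h2, 0.95 between Setdb1 and Suv39h1 and 0.84 between Trim28 and Atf7ip. Ehmt2 ran against Setdb2 (-0.86), Suv39h2 (-0.85), Ehmt1 (-0.82) and Suv39h1 (-0.79). The search for like genes took the 12093 genes with a mean of 100 or more and an assigned symbol that is not a clone, predicted-gene or pseudogene name. The closest to Ehmt2 were Dusp26 (0.995), Phf21a (0.994) and Cers4 (0.994), and the closest to Suv39h1 were Kif20a (0.998), a kinesin of cell division, Vps16 (0.998) and Srsf2 (0.998). The closest gene was Cdc25c, a phosphatase of mitotic entry, for Suv39h2 (0.997), Gclm for Setdb2 (0.997), Rbbp5 for Setdb1 (0.994), Tut4 for Ehmt1 (0.994), Lars for Trim28 (0.994) and Ccnt1 for Atf7ip (0.990).

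The genes that work around the members were followed by list. Of 8 genes of the HUSH complex and other SETDB1 partners, 5 fell and none rose from E13.5 to E16.5, 6 fell and none rose to P0, and all 8 rose to P3. Over all genes 34.6% fell and 45.5% rose in the first interval, 33.4% fell and 27.6% rose in the second, and 40.1% rose and 36.4% fell in the third. With equal totals these splits were 4 higher and 4 lower, 3 and 2, and 4 and 2, against all-gene shares of 55.6% and 23.7%, 54.9% and 14.8%, and 19.7% and 58.4%, and the list's median relative to all genes was -0.83 and -0.85 for the first interval on the 2 scalings. Tasor, the scaffold of HUSH, which shares 12.9% of its exonic bases with Ccdc66, went from 1675 ± 86.1 to 294 ± 67.3, 154 ± 21.2 and 775 ± 94.2 normalized counts. Smarcad1, a remodeller that works with SETDB1 and TRIM28, fell from 7927 ± 679 to 793 ± 83.1 (log2 fold change -3.32, limma adjusted p 8.15e-15) under all 5 scalings. Pphln1, which encodes periphilin of HUSH, rose from 2223 ± 44.3 at P0 to 10903 ± 577 at P3 (2.29, adjusted p 6.63e-14), also under all 5.

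Of 5 partners of EHMT1 and EHMT2, 4 fell and 1 rose from E13.5 to E16.5, under every scaling tried, where 34.6% of all genes fell and 45.5% rose on the deposited one. Cdyl, which bridges G9a to chromatin, fell from 3320 ± 312 to 649 ± 25.2 normalized counts (-2.35, limma adjusted p 5.31e-13), and Zfp518b, a zinc finger partner of G9a, rose from 126 ± 8.23 to 299 ± 17.4 (1.25, adjusted p 1.42e-07). Wiz, a zinc finger protein of the same complex, went from 2114 ± 202 to 818 ± 86.5 at E16.5 and 487 ± 40.5 at P0, and shares 22.7% of its exonic bases with other genes. Zfp518b was thus the partner that rose with Ehmt2 at E16.5, but the 2 profiles parted later. The mean of Zfp518b was highest at P3, where that of Ehmt2 was lowest. From P0 to P3, 4 rose and none fell on the deposited scaling (40.1% and 36.4% of all genes), and 2 rose and 1 fell with equal totals (19.7% and 58.4%).

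The KRAB zinc finger list gave 5 tested genes of 6, since Zfp708, which shares 96.4% of its exonic bases with other genes, did not pass the filter. From E13.5 to E16.5, 3 fell and 1 rose (2 rose with equal totals), against 34.6% and 45.5% of all genes, the falls being Zfp932 (-2.75), Zfp809 (-2.39) and Zfp445 (-0.89). Zfp809, which brings TRIM28 to retroviral sequence, had 707 ± 17.3 normalized counts at E13.5 and 138 ± 45.5 at E16.5. Of 6 HP1 proteins and other readers, all 6 fell to E16.5, as did 34.6% of all genes, and 5 rose from P0 to P3, as did 40.1%, with Adnp (82.1% of exonic bases shared with Gm20716) uncertain. With equal totals 5 fell and 1 rose in the first interval (23.7% and 55.6% of all genes), and 4 rose and 1 fell in the second (19.7% and 58.4%). Cbx1 (HP1 beta) went from 6103 ± 160 to 501 ± 86.9, 273 ± 12.2 and 2046 ± 129, and Uhrf1, a reader of methylated H3K9 and partner of DNA methyltransferase, from 7681 ± 468 to 1963 ± 97.8, 1376 ± 207 and 31559 ± 2158.

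Demethylases remove methyl groups from H3K9. Of 11 demethylase genes, 5 rose and 2 fell from E13.5 to E16.5, where 45.5% of all genes rose and 34.6% fell, so the share that rose was that of all genes. With equal totals 9 rose and 1 fell, against 55.6% and 23.7%. From P0 to P3, 1 rose and 6 fell on the deposited scaling, against 40.1% and 36.4% of all genes (19.7% and 58.4% with equal totals). In that interval Jmjd1c, Kdm3b, Kdm4d and Kdm7a changed sign among the 5 scalings, while Kdm1a, Kdm3a, Kdm4a, Kdm4b and Kdm4c fell under each. Kdm4a, a trimethyl demethylase, had 625 ± 45.1, 3080 ± 239, 1533 ± 202 and 281 ± 61.9 normalized counts, the same order of high and low stages as Ehmt2. Its rise to E16.5 (2.30, limma adjusted p 1.53e-10) and its fall to P3 (-2.46, adjusted p 9.37e-11) held under all 5 scalings. Phf2 (2.08), Phf8 (1.49), Kdm3a (1.15) and Kdm1a (0.64) also rose to E16.5, and Kdm4c (-1.84) and Kdm3b (-0.44) fell. Between E16.5 and P0 no demethylase rose and 6 fell on the deposited scaling (27.6% and 33.4% of all genes), but 5 rose and 2 fell with equal totals (54.9% and 14.8%).

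Of 5 other SET domain enzymes, 3 rose and 2 fell from E13.5 to E16.5 under every scaling, against 45.5% and 34.6% of all genes on the deposited one. Prdm16, of the PRDM family, rose from 197 ± 15.6 to 3185 ± 79.7 normalized counts (4.01, limma adjusted p 8.28e-16) and was at 1491 ± 70.2 at P0 and 2154 ± 120 at P3. Kmt5b (-1.20) and Kmt5c (-1.14), which methylate H4 lysine 20 at heterochromatin, fell with the SUV39H pair. Mecom reached 170 ± 10.2 at P0, against 12.9 to 44.7 on average at the other stages.

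**Figure D5:**
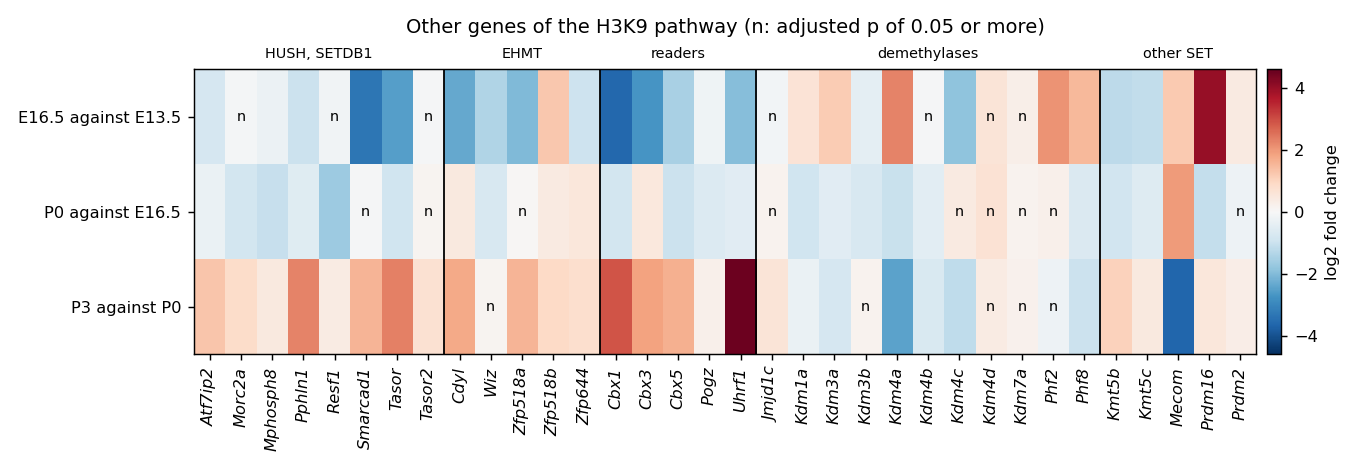
log2 fold changes (colour) of other genes of the H3K9 pathway (x axis, grouped by list) for the 3 comparisons of consecutive stages (y axis). An n marks a gene with an adjusted p of 0.05 or more. The top line of cells, E16.5 against E13.5, holds the falls of Cbx1 (-3.62) and Smarcad1 (-3.32) and the rises of Prdm16 (4.01) and Kdm4a (2.30).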

How the data were processed

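Male germ cells of 12 samples were profiled by RNA sequencing. Per the labels' protocols, libraries came from total RNA by SMART-seq v4 amplification and TruSeq preparation. The submitters' processing notes name bcl2fastq 2.20, cutadapt 1.18, HISAT2 2.1.0, featureCounts 1.5.2 and DESeq2 1.26.0, and the builds mm10 and GRCm38. The annotation release, the strand setting and the treatment of reads that match several genes are not given in the sources used here. The authors deposited 1 table of 55487 genes by 12 libraries. The deposited values are a normalized signal, reads divided by 1 size factor per library, as their steps show, which makes a level relative to the other genes of the library. Whole reads were recovered for 100% of values (tolerance 0.001), giving 40946616 to 51533747 reads per library. Column heads name the stage and a library number (1, 3 or 4) that is not the replicate number of the labels, so libraries were assigned to stages only. Symbols were matched for 99.4% of identifiers.

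Values were analysed as log2(normalized count + 1) for the 22384 genes that reached 10 normalized counts in 3 or more libraries, with limma 3.58.1 (trended eBayes, all 4 stages in 1 fit, 8 genes read from it). A gene was called at a Benjamini-Hochberg adjusted p under 0.05 over all genes. Fold changes are on that log2 scale. Ratios within a library were tested by exact permutation. Alternatives were TMM, median-of-ratios, poscounts and equal-total scaling, pseudocounts of 0.1 and 10, other filters, fits of 2 stages, edgeR 4.0.16 and DESeq2 1.42.0 on recovered reads, leaving out each library, and the column number as a block. On simulated data limma called 198 of 200 genes changed 4-fold, and 10 of 20882 unchanged ones, for P0 against E16.5 (200 and 14 for P3 against P0). There the 200 genes were raised at P0 only, all genes had the same dispersion and the library factors were known. The simulation therefore does not cover doubt about the scaling or data in which most genes change. Named genes were the 8 members and the genes of fixed lists (HUSH and SETDB1 partners, EHMT partners, KRAB zinc finger proteins, readers, demethylases, other SET enzymes, proliferation genes and cell type markers), with the 3 genes most correlated with each member. The members, lists and tests were chosen with earlier results of these data known. Exonic lengths and positions are from GENCODE (GRCm38), and promoters from RefSeq (GRCm38.p6). Protein sequences were not used here.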

Additional observations from a re-analysis of the deposited data

How the results depend on the processing

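Of the member fold changes computed under alternatives, 1159 kept their direction and side of the threshold, 18 fell short of it, 1 passed it newly and 22 changed sign. All sign changes came from library scaling except those of Atf7ip for E16.5 against E13.5, whose value was -0.00. That value was 0.086 with TMM factors, 0.22 with median-of-ratios factors, 0.0060 with poscounts factors, 0.51 with equal totals, 0.0023 with edgeR, 0.0022 with DESeq2 and 0.040 without E16.5 library 4 and P0 library 1, and -0.067 to 0.040 when each library was left out in turn. With equal totals P0 against E16.5 gave 0.35 for Suv39h2, 0.25 for Ehmt1 and 0.38 for Ehmt2. P3 against P0 gave -0.11 (median-of-ratios) and -0.51 (equal totals) for Trim28, and -0.075 (TMM), -0.34 (median-of-ratios) and -0.74 (equal totals) for Atf7ip. P0 against E13.5 gave 0.15 for Atf7ip, and P3 against E13.5 gave 0.18 for Suv39h1 and 0.015 for Suv39h2, all with equal totals. Other scalings divide libraries by other factors, and no value here shows which is right.

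Members changed numbered 5 in place of 8 for P0 against E16.5 with median-of-ratios factors, and 4 in place of 7 for P3 against E13.5 with equal totals. With only the 2 stages fitted, Suv39h1 passed for P3 against E13.5. A filter on a mean of at least 100 left 13135 genes to test, and genes changed then numbered 11459 (17932 before) for E16.5 against E13.5, 11249 (17122) for P3 against P0, 11968 (19280) for P0 against E13.5 and 13040 (21300) among the 4 stages. Leaving out each library in turn gave 7 members in every case for E16.5 against E13.5 and for P3 against P0, 8 for P0 against E13.5, 7 to 8 for P0 against E16.5 and for P3 against E16.5, and 6 to 7 for P3 against E13.5. Leaving out E16.5 library 4 and P0 library 1, which had the highest Leydig cell marker sums, was chosen after seeing the data. It gave 7, 6 and 7 members for the consecutive comparisons, and 8, 8 and 7 for P0 against E13.5, P3 against E16.5 and P3 against E13.5. The 4 ratios kept their call under all 56 alternatives run. The columns do not carry the replicate numbers of the labels, so their own numbers 1, 3 and 4 were used as a replicate block, chosen after seeing the data. The block gave 17911, 13529 and 17028 genes changed for the consecutive comparisons, with 7, 8 and 7 members, and it changed no call or direction of a member. Libraries sharing a number did not deviate together (correlations from -0.036 to 0.042 over 18 pairs), and 2 of 12 libraries correlated best with their own number. Depth did not limit the members, the lowest of which had 751 reads.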
